A study of Mus musculus with 20 samples.

Results

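The genes described here encode the proteasome: the 50 protein-coding genes, of 34083 genes in the data, whose symbol begins with Psm, one letter from a to g and a number in the mouse annotation GENCODE vM21. Another 4 genes matched the symbol but are not protein-coding and were left out. Each member was placed by its known role in the alpha ring (7 genes), the beta ring (7), the immunoproteasome and tissue-specific core subunits (5), the ATPases of the regulatory base (6), the other base subunits with the ubiquitin receptor (3), the regulatory lid (8), the alternative activators with the inhibitor (6) or the assembly chaperones (7). The last member, Psmc3ip, matched by its symbol alone and encodes a protein of meiotic recombination. The members carried 0.711% to 0.814% of the counts of a library.

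RNA was sequenced in bulk from N2A (Neuro2A) cells, a mouse neuroblastoma line, grown in wells of glass-bottom plates that were scanned whole with a near-infrared femtosecond laser and lysed 1 hour later. In batch 1, I0-E0, I0-E2 and I0-E4 shared an average intensity of 0.048 W/µm2 and received fluencies of 10, 48 and 95 J/cm2 at dwell times of 2, 10 and 20 µs per pixel, and I2-E2 received 0.24 W/µm2 and 48 J/cm2 at 2 µs per pixel. In batch 2, I3-E3-SRS received 0.4 W/µm2 and 79 J/cm2 at 2 µs per pixel from a pump and a Stokes laser together, as in stimulated Raman scattering microscopy. Each batch had unexposed wells as negative control (NC), and every group had 3 libraries except NC of batch 2, which had 2. The sources name no genetic change in any group, and all groups are one cell line under one culture protocol. The study's methods describe unexposed wells lysed together with the exposed ones, but the labels do not tie each numbered library to a well or to a separate culture. The p-values thus reflect how far these particular libraries scatter, and that scatter may be technical.

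The proteasome is the cell's main protease for proteins marked with ubiquitin. Its core is a barrel of 2 outer alpha rings, which gate the entrance, and 2 inner beta rings, of which Psmb5, Psmb6 and Psmb7 carry the active sites. The regulatory particle caps the barrel: its lid removes ubiquitin, and its base, with a ring of ATPases, unfolds the substrate and feeds it into the core. Cells exposed to interferon exchange the active beta subunits for Psmb8, Psmb9 and Psmb10 and form the immunoproteasome. When proteasome activity is limiting, the transcription factor encoded by Nfe2l1 raises the subunit genes together through antioxidant response elements in their promoters, which is why the whole set is of interest in cells under stress.

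Promoters from RefSeq (assembly GRCm38.p6, 250 bases before to 50 bases after the start site) were matched for 42 of the 50 members, and a gene was counted where any of its promoters held the motif. The core of the antioxidant response element, TGACNNNGC on either strand, occurred in 6 of the 42 (14.3%), against 13.99% of all 27025 genes and 16.96% of the 8486 genes expressed in these cells. Counted by promoter, it occurred in 12.4% of all 32851 promoters. The CCAAT box occurred in 15 of 42 members (35.7%), against 41.1% of all genes and 44.1% of expressed genes, and in 37.4% of all promoters. The ETS core CCGGAAG also occurred in 15 of 42 members (35.7%), against 9.93% of all genes and 22.3% of expressed genes, and in 8.86% of all promoters. Within a promoter of the members, no match of one motif overlapped a match of another. A match describes the letters only. The matches to the element through which Nfe2l1 acts are given for 5 members, each with up to 20 bases on either side as far as the start site or the promoter's first base, written 5′ to 3′ on the strand of the gene, with the element in capitals.
Psmd9: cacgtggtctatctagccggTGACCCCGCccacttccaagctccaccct
Psmb6: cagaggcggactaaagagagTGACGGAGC
Psmb5: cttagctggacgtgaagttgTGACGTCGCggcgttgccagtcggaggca
Psmd12: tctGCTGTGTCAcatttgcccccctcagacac
Psmc6: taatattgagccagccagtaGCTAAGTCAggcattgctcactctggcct
The windows lie at chr5:123228139-123228187 (Psmd9), chr11:70525328-70525356 (Psmb6), chr14:54618014-54618062 on the minus strand (Psmb5), chr11:107479278-107479309 (Psmd12) and chr14:45329577-45329625 (Psmc6). In Psmd9, Psmb6 and Psmb5 the element reads in the direction of the gene and begins 31, 9 and 47 bases before the start site. In Psmd12 and Psmc6 it reads on the opposite strand, at 247 and 227 bases before the start site. The match in Psme4 is not shown.

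N2A cells expressed nearly the whole constitutive proteasome at high levels. In NC of batch 1, 35 of the 50 members averaged 100 TPM (abundance per transcript length, scaled to one sum in every library) or more, and 3 averaged under 1 TPM. Levels differed by role. The median member of the beta ring was at 324 TPM and of the alpha ring at 303 TPM, followed by the base ATPases (228), the lid (188), the other base subunits (171), the activators (102), the assembly chaperones (67.2) and the immunoproteasome group (1.81). Subunits of one particle are present in it in equal number, but their mRNA levels were not equal.

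**Figure D1:**
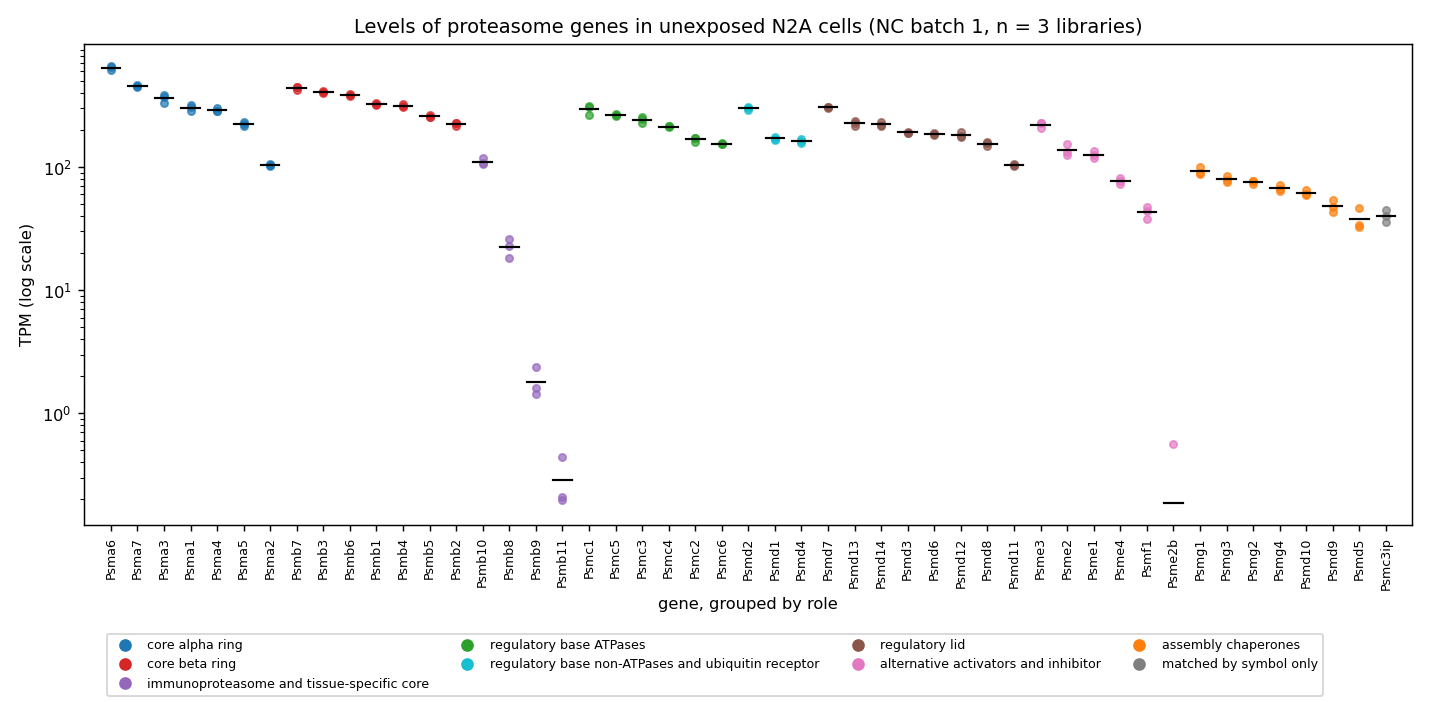
Levels of the proteasome genes in NC of batch 1 in TPM on a log axis, by role; points are the 3 libraries, bars are their mean, and libraries at 0 are not drawn. Core subunits sit mostly above 200 TPM, assembly chaperones under 100 TPM, and Psmb9, Psmb11 and Psme2b near or under 1 TPM.

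In the alpha ring, Psma6 was highest of all members, with 612 to 694 TPM in the 12 exposed libraries of batch 1 and 644, 664 and 612 TPM in NC. Psma2 was the lowest alpha subunit, with 95.4 to 118 TPM in the exposed libraries and 107, 103 and 104 TPM in NC. The exposed range covered the NC values in both. In the beta ring, Psmb7, which carries the trypsin-like activity, had 401 to 524 TPM in the exposed libraries and 423, 444 and 444 TPM in NC. Psmb2, a structural beta subunit, had 193 to 255 TPM in the exposed libraries and 229.8, 228 and 218 TPM in NC. The top 4 steps of the order in NC, Psma6 over Psma7, Psmb7, Psmb3 and Psmb6, were each wider than the libraries' ranges, whereas the libraries of 34 of the 49 pairs of neighbours in the whole order overlapped.

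Among the base ATPases, Psmc1 was highest, with 253 to 321 TPM in the exposed libraries of batch 1 and 266, 307 and 312 TPM in NC. Psmc6 was lowest, with 150.1 to 167 TPM in the exposed libraries and 153, 153 and 156 TPM in NC. The base scaffold Psmd2 had 276 to 311 TPM in the exposed libraries and 308, 299.8 and 293 TPM in NC. Per read count, though not in TPM, it was the steadiest member, and it had the most counts, 62360 in batch 1. Its highest library of batch 1 was 1.1 times its lowest. The median over the members was 1.30, with 1.68 for Psme2 and 5.71 for Psmb9, which had few counts. The ubiquitin receptor Psmd4 was lowest of its group, with 146 to 179 TPM in the exposed libraries and 158, 163 and 169 TPM in NC. In the lid, Psmd7 had 288 to 331 TPM in the exposed libraries and 307, 309 and 299.5 TPM in NC, and Psmd11 had 90.4 to 114 TPM against 107, 105 and 103 TPM. Again the exposed libraries lay on both sides of NC.

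Of the genes whose products open the core without the ATPases, Psme3, a nuclear activator, was highest, with 182 to 244 TPM in the exposed libraries of batch 1 and 209, 227 and 227 TPM in NC. Psmf1, the inhibitor, had 29.9 to 43.3 TPM in the exposed libraries and 44.0, 47.7 and 37.6 TPM in NC. Psme2b, a near-identical copy of the activator Psme2, averaged 0.188 TPM in NC, with reads in 1 of its libraries, and was not tested. The assembly chaperones, which help to build the particle and then leave it, ran from Psmg1, with 86.0 to 112 TPM in the exposed libraries and 99.9, 88.1 and 90.2 TPM in NC, down to Psmd5, with 28.7 to 44.2 TPM in the exposed libraries and 34.1, 46.9 and 32.4 TPM in NC. None of these members had its exposed libraries of batch 1 all on one side of NC.

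The immunoproteasome and tissue-specific genes spanned a wide range of levels. Psmb10 averaged 110.5 ± 6.55 TPM in NC of batch 1 and Psmb8 22.4 ± 3.83 TPM, whereas Psmb9 averaged 1.81 ± 0.498 TPM (SD, n = 3 each). The thymus-specific Psmb11 averaged 0.285 TPM. The testis-specific Psma8 had 0 counts in all 20 libraries, which allows up to 3 counts per library, or 0.238 to 0.552 CPM (counts scaled to a common library size). Such limits and the p-values below cover the reads as counted, which carry no molecular identifiers.

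One library of batch 2 stood apart from all others. In NC replicate 1, 50.8% of the TPM of the members fell on their 59 transcripts shorter than 600 bases, against 2.36% to 4.65% in the other 19 libraries. The most used transcript of a member took a median of 48.4% of its TPM there, against 86.8% to 93.4% elsewhere. It also had the lowest total, 5473588 counts, where the others ran up to 12698770. Single transcripts, chosen after their values were seen, show the size of the shift. Psme2-208, the main coding transcript of the activator Psme2, was at 0 TPM in this library, against 114.7 to 129 TPM in I3-E3-SRS and 124 TPM in the other NC library, while Psme2-203, a retained-intron transcript of 185 bases, was at 858 TPM, against 0 to 31.4 TPM in the other 19 libraries. Psma7-201, the coding transcript of an alpha subunit, was at 164 TPM, against 440.2 to 508 TPM in I3-E3-SRS and 487 TPM in the other NC library. Relative to the NC mean of its batch, the median gene of this library stood at -0.47 in log2 TPM and at -0.0021 in log2 CPM. The scaling of library sizes brings the median CPM near 0, so this value does not show that single genes are sound there. Psma3 and Psmg1, given below, still differed between the 2 NC libraries in CPM. Batch 2 is described in CPM for its common scale, and its comparison rests on only 2 NC libraries of which 1 is this one. In batch 1, replicate 3 of I0-E0 had reads on 19940 genes, against 15523 to 17173 genes in the other 19 libraries.

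Comparisons between groups were made on CPM of the estimated counts, with edgeR's quasi-likelihood test and Benjamini-Hochberg adjustment over all genes of a batch. A fold change is given on the log2 scale as exposed minus NC, with its standard error (SE). In batch 1, 12289 genes and 47 members passed the filter on low counts, and in batch 2, 12052 genes and 46 members. Psma8, Psmb11 and Psme2b failed it in both batches and Psmb9 in batch 2. In bulk samples, fewer cells and less RNA per cell cannot be told apart.

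No member passed the adjusted threshold of 0.05 in any of the 5 comparisons with NC, in a background of 0% of all tested genes, and none did by limma-voom or DESeq2. At an unadjusted p under 0.05, higher members numbered 0 of 47 in I0-E0 (background 1.84% of tested genes), 0 in I0-E2 (1.5%), 4 in I0-E4 (4.15%) and 1 in I2-E2 (3.84%), and 1 of 46 in I3-E3-SRS (1.53%). Lower members numbered 0 in every comparison, where the background was 1.52% in I0-E0, 1.85% in I0-E2, 3.75% in I0-E4, 3.34% in I2-E2 and 2.51% in I3-E3-SRS. The 4 members of I0-E4 are 8.51% of those tested, and the single members of I2-E2 and I3-E3-SRS are near the background.

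The fitted values of the members leaned one way in batch 1 although no single gene passed. Values above 0 were found for 34 of 47 members in I0-E0 (background 51.4% of tested genes), 39 in I0-E2 (50.2%), 41 in I0-E4 (50.7%) and 38 in I2-E2 (51.2%). In I3-E3-SRS they were found for 27 of 46 members (48.6%). The median log2 fold change of the members was 0.033 in I0-E0, 0.057 in I0-E2, 0.12 in I0-E4, 0.086 in I2-E2 and 0.0048 in I3-E3-SRS, against -0.004 to 0.0039 over all tested genes. The pooled SD of the library medians was 0.055, 0.031, 0.085, 0.098 and 0.049 in the same order, and only I0-E2 and I0-E4 had a median above it. That SD describes single libraries and not a difference between group means, so it is no test of the lean. The 4 comparisons of batch 1 share the same 3 NC libraries, so their values are not independent of each other.

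**Figure D2:**
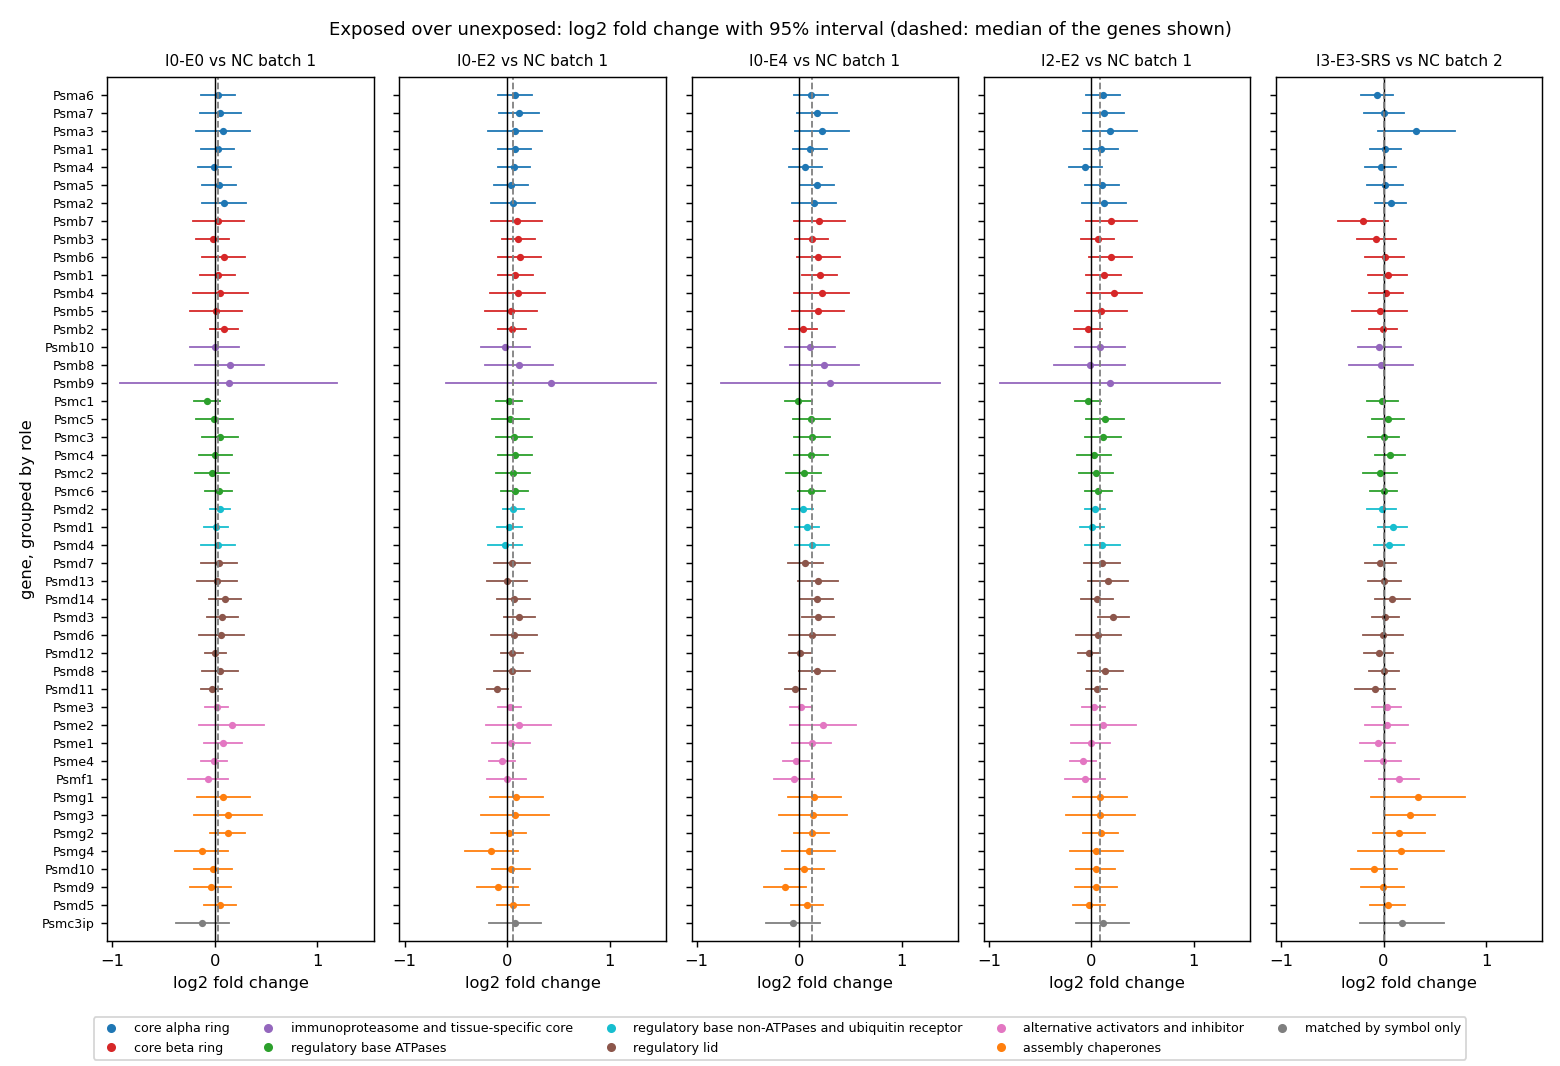
Log2 fold change of each tested member against NC of its batch with its 95% interval, by comparison; colours mark the role and the dashed line the median of the members. The medians run from 0.0048 in I3-E3-SRS to 0.12 in I0-E4, and no member passed the adjusted threshold.

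Among the roles with at least 5 tested members, the beta ring had the highest median in I0-E4, at 0.19 with 7 of 7 members above 0. The lid followed at 0.15 with 7 of 8 above 0, the alpha ring at 0.14 with 7 of 7, the base ATPases at 0.12 with 5 of 6, the assembly chaperones at 0.093 with 6 of 7 and the activators and inhibitor at 0.018 with 3 of 5. In I2-E2 the medians were 0.12 for the beta ring, 0.11 for the alpha ring, 0.085 for the lid, 0.057 for the base ATPases, 0.047 for the assembly chaperones and -0.0074 for the activators and inhibitor. The role medians in I0-E0 lay between -0.0011 for the base ATPases and 0.047 for the assembly chaperones among the same groups. In I3-E3-SRS the assembly chaperones had the highest of these medians, 0.15 with 5 of 7 above 0, and the beta ring stood at -0.0016 with 3 of 7. By library, as log2 CPM minus the NC mean, the chaperone median was 0.075, -0.026 and 0.21 in I3-E3-SRS, against -0.040 and 0.040 in NC. Smaller roles were left out of this order. The immunoproteasome group, with 3 tested members in batch 1, had medians of 0.13 in I0-E0, 0.12 in I0-E2, 0.24 in I0-E4 and 0.086 in I2-E2. The other base subunits, also 3, had 0.032, 0.0235, 0.072 and 0.035 in the same order. Differences between roles were not tested.

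Single libraries carried much of this lean. The median member of a library, as log2 CPM minus the NC mean of its batch, was 0.11, -0.044 and 0.017 in the I0-E0 libraries, 0.0053, 0.058 and 0.091 in I0-E2, 0.19, 0.17 and -0.023 in I0-E4, and 0.090, 0.21 and -0.061 in I2-E2, against -0.014, 0.0024 and 0.0059 in NC of batch 1. One library each of I0-E0, I0-E4 and I2-E2 thus lay below all NC libraries while the other libraries of the same groups lay above them. The NC libraries are part of the mean they are set against, which draws their values toward 0, so their narrow range is no test. In I2-E2, 38, 41 and 10 of the 47 members were above the NC mean. In batch 2 the median member was at -0.0091, -0.041 and 0.073 in I3-E3-SRS, against 0.010 and -0.010 in NC. These NC values mirror each other by construction.

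The count of members above 0 changed with these libraries, as seen when each was left out, an alternative chosen after seeing the data. Without replicate 1 of I0-E0 it was 18 of 48 (37.5%, against 49.3% of all genes), and without replicate 3 of I3-E3-SRS it was 15 of 46 (32.6%, against 49.0%). Without replicate 2 of I2-E2 it was 29 of 48 with a median of 0.0087. For I0-E2 it stayed at 35 to 41 and for I0-E4 at 37 to 42 with any single library of the comparison left out.

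Transcript length moved with the library medians. The members are short, with a median length of 1274.8 bases against 2419.4 bases over 10868 expressed genes, and 41 of 46 were shorter than the median gene. The slope of log2 CPM on gene length, per doubling of length relative to NC, was -0.10, -0.092 and 0.011 in the I0-E4 libraries, -0.048, -0.096 and 0.027 in I2-E2, -0.065, 0.018 and -0.002 in I0-E0, and -0.0048, -0.050 and -0.060 in I0-E2, against 0.017, -0.0024 and -0.014 in NC of batch 1. The 5 libraries of batch 1 with the highest medians were the 5 with the steepest negative slopes, in which short genes were higher. With the trend on length removed, the median of the members was 0.0019 in I0-E0, 0.038 in I0-E2, 0.063 in I0-E4, 0.016 in I2-E2 and 0.042 in I3-E3-SRS. Values above 0 then numbered 24, 35, 37 and 32 of 47 in the 4 comparisons of batch 1 and 36 of 46 in I3-E3-SRS, against 45.1%, 55.9%, 53.5%, 47.9% and 53.1% of all genes.

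**Figure D3:**
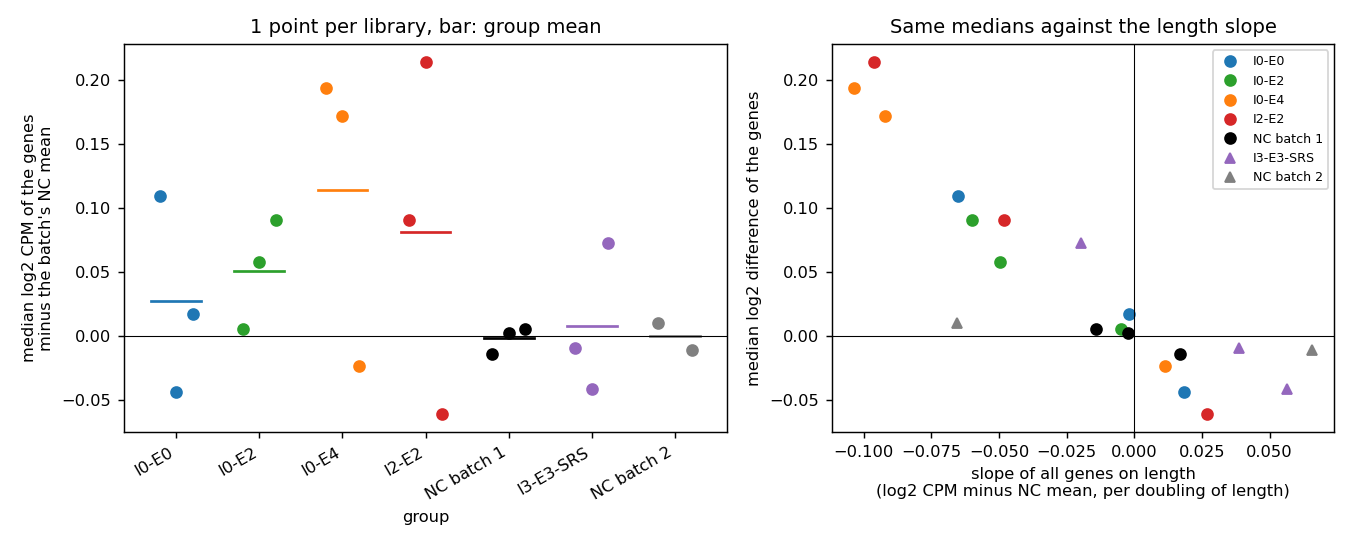
Left, the median member of each library as log2 CPM minus the NC mean of its batch, exposed groups before NC in each batch, with bars at the group means; right, the same medians against the slope of log2 CPM per doubling of gene length (circles batch 1, triangles batch 2). Libraries of batch 1 with steeper negative slopes have higher medians, up to 0.21 in I2-E2 replicate 2.

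Psmd3, a scaffold of the lid (chr11:98682554-98695979, GRCm38, plus strand), had the smallest unadjusted p of the members in I0-E2, I0-E4 and I2-E2 among those with positive values. It had 288, 293 and 269 CPM in I2-E2, 284, 295 and 253 CPM in I0-E4, 263, 274 and 260.0 CPM in I0-E2 and 288, 237 and 245 CPM in I0-E0, against 244, 243 and 245 CPM in NC of batch 1. All libraries of I2-E2, I0-E4 and I0-E2 lay above all NC libraries, and those of I0-E0 did not. The log2 fold change was 0.21 in I2-E2 (SE 0.07, unadjusted p = 0.00892, adjusted p = 0.607, edgeR's quasi-likelihood test) and 0.18 in I0-E4 (SE 0.07, unadjusted p = 0.0216, adjusted p = 0.613, same test). In I0-E2 it was 0.12 (SE 0.07, adjusted p = 0.993) and in I0-E0 0.073 (SE 0.07, adjusted p = 1). In batch 2 Psmd3 had 306, 301 and 318 CPM in I3-E3-SRS, against 305 and 305 CPM in NC, a log2 fold change of 0.015 whose 95% interval ran from -0.12 to 0.15.

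Other core and lid members stood highest in I0-E4. Psmb1, a structural beta subunit, had 201, 229 and 179.9 CPM in I0-E4, against 177, 178 and 176 CPM in NC, a log2 fold change of 0.20 (SE 0.08, unadjusted p = 0.0264, adjusted p = 0.613, edgeR's quasi-likelihood test). Psmd14, the lid's deubiquitinase, had 221, 216 and 189.9 CPM in I0-E4, against 184, 192 and 181 CPM in NC, a log2 fold change of 0.17 (SE 0.07, adjusted p = 0.62). The alpha subunit Psma5 had 183, 174 and 159 CPM in I0-E4, against 149, 160.0 and 149 CPM in NC, and the same log2 fold change of 0.17 (SE 0.08, adjusted p = 0.62). In Psmb1 the groups did not overlap, in Psmd14 and Psma5 they did, and in all 3 genes the library with the lowest value was replicate 3, the one with the lowest member median.

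In I2-E2, Psmb6, the subunit with caspase-like activity, had 167, 187 and 155 CPM, against 144, 149 and 153 CPM in NC, without overlap and with a log2 fold change of 0.19 (SE 0.10, adjusted p = 0.729, edgeR's quasi-likelihood test). The beta subunit Psmb4 had 217, 269 and 173 CPM in I2-E2, against 179, 184 and 199 CPM in NC, with overlap and a log2 fold change of 0.22 (SE 0.13, adjusted p = 0.734). The spread between the 3 exposed libraries of Psmb4 was wider than the difference from NC.

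**Figure D4:**
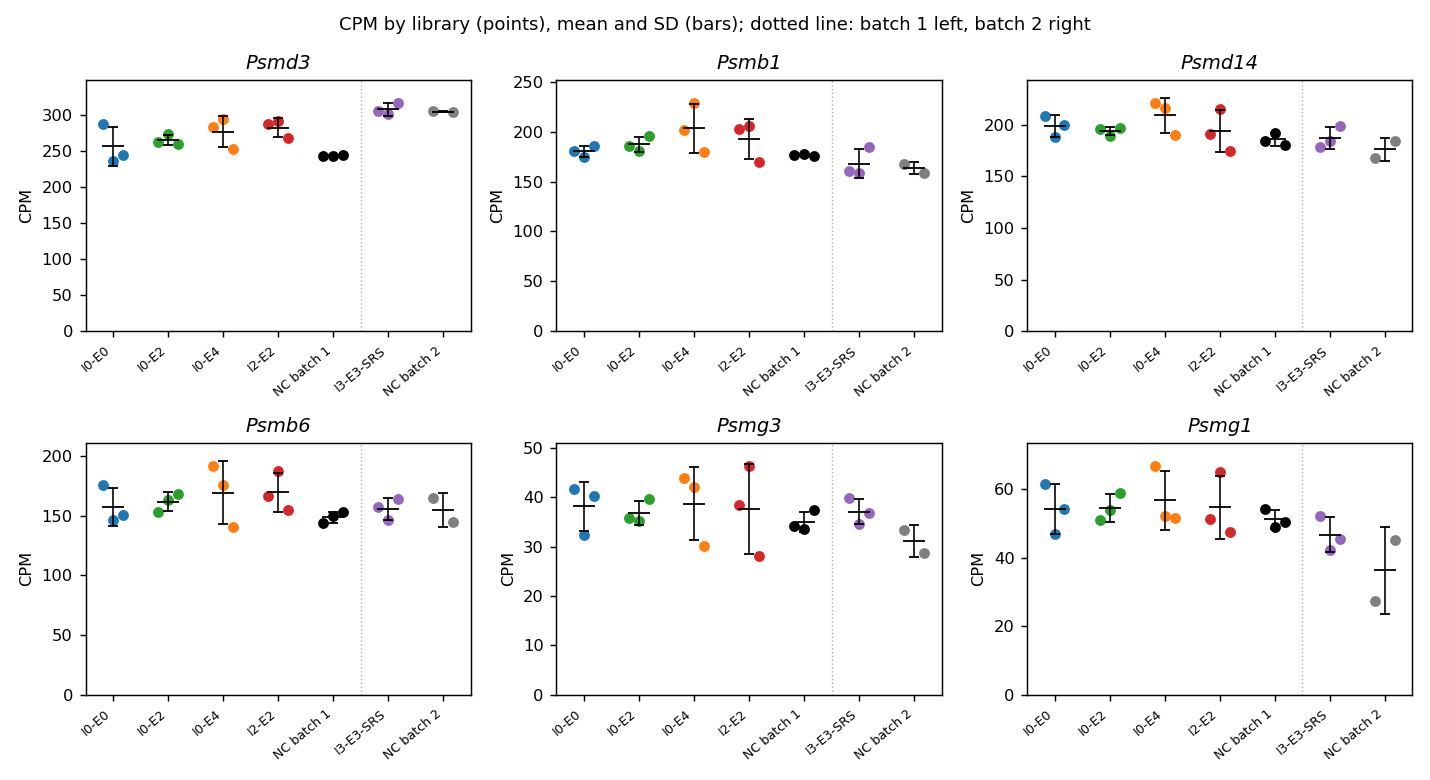
CPM of Psmd3, Psmb1, Psmd14, Psmb6, Psmg3 and Psmg1 in every library (points) with the mean and SD of each group, batch 1 left and batch 2 right, exposed groups before NC. The NC libraries of batch 1 lie within 243 to 245 CPM for Psmd3, and NC of batch 2 spans 27.3 to 45.3 CPM for Psmg1.

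Members with lower values than NC were fewer. Psmd11, a lid subunit, had 118, 121 and 116 CPM in I0-E2, against 129, 124 and 126 CPM in NC, a log2 fold change of -0.094 (SE 0.05, adjusted p = 0.993, edgeR's quasi-likelihood test). In I0-E4 it had 125, 125 and 119.8 CPM, against the same NC values, and the groups overlapped. Psmg4, a chaperone of core assembly, had 12.3, 13.9 and 13.6 CPM in I0-E2 and 14.2, 14.4 and 11.96 CPM in I0-E0, against 15.04, 14.4 and 14.8 CPM in NC, with log2 fold changes of -0.15 and -0.13 (SE 0.12 for both). Its I0-E2 libraries all lay below NC, and the highest I0-E0 library was nearly level with the lowest NC library. Psmd9, a chaperone of base assembly, had 41.7, 44.6 and 44.7 CPM in I0-E4 and 44.6, 44.7 and 45.8 CPM in I0-E2, against 49.1, 45.3 and 49.6 CPM in NC. Only its I0-E4 libraries were all below NC, with a log2 fold change of -0.14 (SE 0.10, adjusted p = 0.711).

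The remaining members with the smallest p in batch 1 lay close to NC. In I0-E0, Psmg2, a core assembly chaperone, had 45.7, 47.7 and 45.3 CPM, against 42.2, 43.4 and 41.6 CPM in NC (log2 fold change 0.12, SE 0.08). Psmb2 had 96.7, 108 and 105 CPM, against 97.1, 98.4 and 94.8 CPM in NC, and Psmd14 209, 188 and 199 CPM, against 184, 192 and 181 CPM. Psmg2 alone of these was without overlap. On the lower side of I0-E0, Psmc1 had 232, 226 and 206 CPM, against 229, 244 and 229 CPM in NC, and Psmc3ip had 20.9, 17.9 and 21.9 CPM, against 19.9, 22.8 and 23.7 CPM.

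In I0-E2, Psmb3, a beta subunit, had 158, 161 and 172 CPM, against 149.9, 153 and 151 CPM in NC (log2 fold change 0.11). Psmd2 had 551, 563 and 575 CPM, against 548, 540.3 and 530.5 CPM in NC (0.062). Both were without overlap at small differences. On the lower side, Psmf1 had 44.0, 47.5 and 46.3 CPM in I0-E4 and 50.3, 40.9 and 45.0 CPM in I2-E2, against 47.8, 53.1 and 41.4 CPM in NC. In I2-E2, Psme4, a large nuclear activator, had 270.4, 234 and 272 CPM, against 280.4, 271 and 272 CPM in NC, and the alpha subunit Psma4 had 163, 195 and 162 CPM, against 170.4, 190.3 and 181 CPM. In these 3 genes the groups overlapped.

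Members whose libraries did not overlap NC were counted in each comparison. In I0-E2, 8 of 47 were higher (background 5.8% of tested genes), namely Psmd2, Psmb1, Psmd3, Psmb6, Psmb7, Psma7, Psmc4 and Psmb3, and 2 were lower (5.42%). In I0-E4, 4 were higher (6.65%), namely Psmb1, Psmd3, Psmc6 and Psma3, and 1 was lower (6.05%). In I2-E2, Psmd3 and Psmb6, 2 of 47, were higher (6.23%) and 0 were lower (5.83%). In I0-E0, 1 was higher (4.69%) and 1 was lower (4.36%). In I3-E3-SRS, Psmg3 and Psmf1, 2 of 46, were higher (8.78%) and 0 were lower (9.82%). The share of I0-E2, 17% of the members tested, was the farthest from its background, and those of I0-E0, I2-E2 and I3-E3-SRS were under theirs. Some of these gaps were very small. In I0-E2 the lowest library had 282.9 CPM of Psmb7 and 153.01 CPM of Psmb6, against 282.6 and 152.64 CPM in the highest NC library. In I0-E4 the lowest library had 141.085 CPM of Psmc6, against 141.044 CPM.

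Comparisons between exposed groups gave no call either. I2-E2 and I0-E2 received the same fluency at different intensities, and 0 members passed the adjusted threshold (background 0%), with 1 of 47 at an unadjusted p under 0.05 (5.23%). That member was Psmd11, with 131, 134 and 127 CPM in I2-E2, against 118, 121 and 116 CPM in I0-E2, without overlap (log2 fold change 0.14, SE 0.05, unadjusted p = 0.00964, adjusted p = 0.946, edgeR's quasi-likelihood test). The median of the members was 0.011. Between I2-E2 and I0-E0, with the same dwell time, 0 members passed (0%), 0 had an unadjusted p under 0.05 (6.11%), and the median was 0.061. For all exposed libraries of batch 1 against NC, 0 members passed (0%), 1, Psmd3, had an unadjusted p under 0.05 (5.89%), and the median was 0.074.

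Immunoproteasome members stayed within their spread. Psmb8 had 16.2, 13.2 and 13.9 CPM in I0-E0, 12.4, 13.7 and 16.4 CPM in I0-E2, 14.9, 17.3 and 14.5 CPM in I0-E4 and 15.3, 13.2 and 10.5 CPM in I2-E2, against 11.2, 12.8 and 15.5 CPM in NC. Psmb10 had 45.7, 33.6 and 39.7 CPM in I0-E0, 39.8, 36.5 and 41.3 CPM in I0-E2, 47.9, 44.9 and 36.1 CPM in I0-E4 and 44.2, 44.4 and 38.4 CPM in I2-E2, against 38.3, 39.2 and 41.9 CPM in NC. Every exposed group overlapped NC in both genes, and the largest log2 fold changes were in I0-E4, 0.24 for Psmb8 (SE 0.16) and 0.11 for Psmb10 (SE 0.11), neither of which passed. Psmb9 had 1.51, 1.05 and 1.12 CPM in I0-E0, 0.870, 2.38 and 1.29 CPM in I0-E2, 1.69, 1.28 and 1.21 CPM in I0-E4 and 0.417, 1.78 and 1.66 CPM in I2-E2, against 1.08, 1.45 and 0.773 CPM in NC. At 3 to 19 counts per library, its 95% intervals reached from -0.93 to 1.45 on the log2 scale over the 4 comparisons, so a doubling lay inside the interval of each of them and no difference was detectable at this depth. Psmb11 was at 0 to 1.62 CPM in the exposed libraries of batch 1 and at 0.481, 1.21 and 0.619 CPM in NC.

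In batch 2, Psmb8 had 13.3, 13.8 and 13.0 CPM in I3-E3-SRS, against 12.6 and 14.5 CPM in NC, and Psmb10 had 36.8, 36.3 and 38.9 CPM, against 41.4 and 35.9 CPM. Neither gene differed beyond its spread. Psmb11 had 0.570, 0.563 and 1.04 CPM in I3-E3-SRS, against 0.376 and 1.25 CPM in NC.

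In I3-E3-SRS, the assembly chaperones Psmg3 and Psmg1 had the values farthest from NC among their role. Psmg3 had 39.8, 34.7 and 36.9 CPM, against 33.5 and 28.8 CPM in NC, without overlap and with a log2 fold change of 0.26 (SE 0.10, unadjusted p = 0.037, adjusted p = 1, edgeR's quasi-likelihood test). Psmg1 had 52.2, 42.3 and 45.5 CPM, against 27.3 and 45.3 CPM in NC, a log2 fold change of 0.34 (SE 0.20, adjusted p = 1). The low NC value of Psmg1 was that of replicate 1, and the other NC library lay within the exposed range. Psmf1 had 53.3, 47.7 and 51.3 CPM, against 47.0 and 44.5 CPM in NC (0.15, SE 0.08). On the lower side, Psmb7 had 177, 169 and 190.1 CPM in I3-E3-SRS, against 229 and 182 CPM in NC (-0.20, SE 0.10, adjusted p = 1), Psmd11 119, 127 and 139 CPM, against 129.5 and 142 CPM, and Psma6 363, 367 and 398 CPM, against 404 and 382 CPM. These 3 genes overlapped NC.

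Without NC replicate 2, the library that stands apart is the only NC. The log2 fold change was then 0.77 for Psmg1 and 0.69 for Psma3. A lone NC library shows no spread of its own, so calls from that fit are not read as results. With both NC libraries, 0 members passed.

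Psma3, an alpha subunit, shares sequence with the processed pseudogene Gm13835, and estimated counts can be split between such copies. Psma3 had 227, 217 and 232 CPM in I3-E3-SRS, against 140.3 and 218 CPM in NC of batch 2, a log2 fold change of 0.32 (SE 0.16, adjusted p = 1, edgeR's quasi-likelihood test). Gm13835 had 5.69, 17.4 and 16.5 CPM in I3-E3-SRS, against 101 and 11.2 CPM in NC. The NC library low in Psma3 was the one high in the pseudogene. The sum of both was 233, 234 and 249 CPM in I3-E3-SRS, against 242 and 229.7 CPM in NC, so that the sums overlapped.

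**Figure D5:**
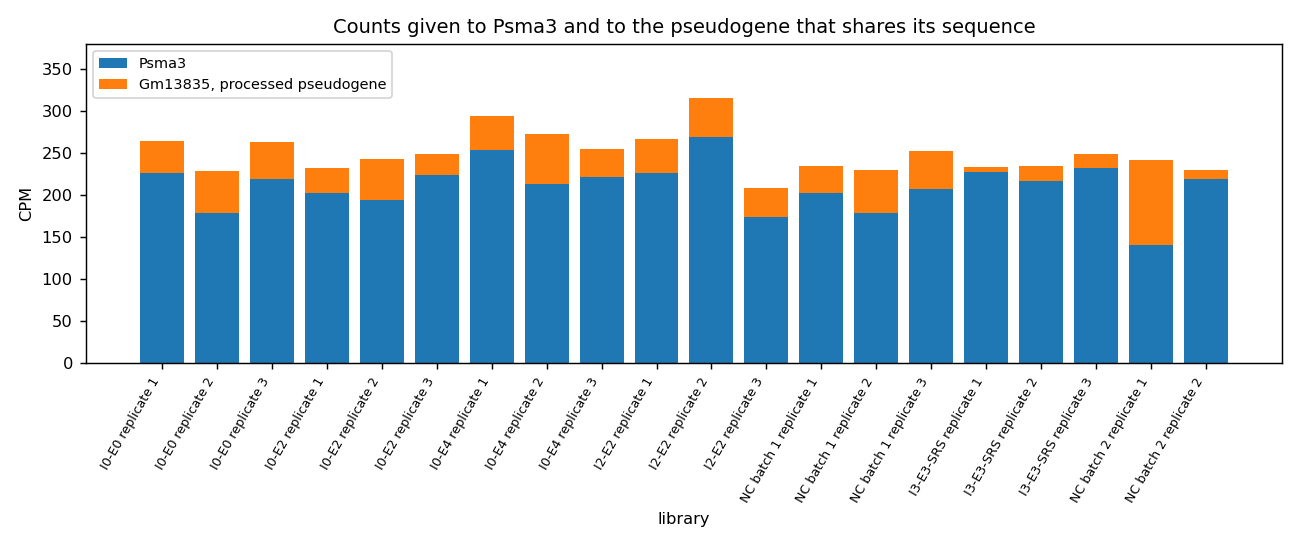
CPM of Psma3 and of its processed pseudogene Gm13835, stacked, in every library, exposed groups before NC in each batch. In NC replicate 1 of batch 2 the pseudogene took 101 of 242 CPM, and in the other libraries of that batch at most 17.4 CPM.

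For 15 of the 50 members, less than 95% of the 31-base stretches in their transcripts were unique to the gene, and their levels are uncertain where a copy takes reads. Psmb5, the chymotrypsin-like subunit, has the least unique sequence of the constitutive members (28.3%), and its pseudogene Gm3375 held 22.9% of the counts of both over the libraries, the highest share of any pseudogene partner. Gm13835 held 14.4% of those with Psma3. Every other pseudogene partner with a count held at most 0.147%. For Psmb5 the sum with the pseudogene was 167, 164 and 187 CPM in I3-E3-SRS, against 219.6 and 157 CPM in NC of batch 2.

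Most members were expressed mainly as protein-coding transcripts, with exceptions in which the annotation of the main transcript differs. In NC of batch 1, 93.5% of the TPM of Psma3 fell on transcripts that vM21 does not annotate as protein-coding, led by Psma3-201 (nonsense-mediated decay, 47.9%) and Psma3-203 (retained intron, 36.5%). The share was 76.8% for Psmb10, led by a retained-intron transcript with 41.3%, and 76.6% for Psmc3ip. Psmd13, a lid subunit, followed at 38.1%, and every other member was under 15%. Gene levels of Psma3 and Psmb10 are thus sums in which the estimated coding transcript is a minority.

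Genes outside the symbol rule that act with the proteasome were counted by lists. Of 9 partners, which include the core maturation factor Pomp, the deubiquitinases Usp14 and Uchl5 and the receptor Adrm1, 8 had values above 0 in I0-E0, 7 in I0-E2, 8 in I0-E4, 6 in I2-E2 and 7 in I3-E3-SRS, and 0 had an unadjusted p under 0.05. Pomp, at 347.5 TPM in NC of batch 1, averaged 141 ± 39.1 CPM in I2-E2, against 121 ± 9.72 CPM in NC (SD, n = 3 each, log2 fold change 0.22, SE 0.14). Its spread in I2-E2 exceeded the difference. Of 16 genes of ubiquitin and its delivery, 6, 8, 8, 7 and 6 were above 0 in the same order of comparisons, with 0 at an unadjusted p under 0.05. Of 8 regulators of proteasome genes, 3, 3, 1, 4 and 4 were above 0. Nfe2l1 itself, at 72.4 TPM in NC of batch 1, averaged 170.5 ± 3.69 CPM in I0-E0, 161 ± 6.95 CPM in I0-E2, 156 ± 12.2 CPM in I0-E4 and 162 ± 10.1 CPM in I2-E2, against 160.0 ± 12.1 CPM in NC (SD, n = 3 each). In batch 2 it averaged 198 ± 18.3 CPM in I3-E3-SRS (n = 3), against 210.3 ± 13.4 CPM in NC (n = 2). Its log2 fold changes ran from -0.086 in I3-E3-SRS to 0.092 in I0-E0, and none passed. The only regulator with an unadjusted p under 0.05 was Sel1l, which acts in disposal of misfolded proteins from the endoplasmic reticulum, at 86.7 CPM in I3-E3-SRS, against 95.8 CPM in NC (log2 fold change -0.14, unadjusted p = 0.0376 by edgeR's quasi-likelihood test, not passing). That is 1 of 8 genes, where 2.51% of all tested genes were lower in I3-E3-SRS at that level. No gene of these lists passed the adjusted threshold.

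The interferon and antigen presentation list, which would move with the immunoproteasome, held 17 genes. Of these, 10 were tested in batch 1 and 9 in batch 2, and 5, 4, 5, 5 and 7 were above 0. The rest, in batch 1 among them Irf7, Isg15 and Cxcl10, did not pass the filter on low counts and were not compared. Tap1, a peptide transporter, averaged 6.49 CPM in I0-E0, against 8.89 CPM in NC (-0.46, unadjusted p = 0.0433 by edgeR's quasi-likelihood test, not passing). That is 1 of 10 genes, where 1.52% of all tested genes were lower in I0-E0 at an unadjusted p under 0.05. All 11 neuroblastoma identity genes were detected, with a summed level of 1381 to 1551 TPM in the exposed libraries of batch 1 and 1443 to 1471 TPM in NC. In batch 2 the sum was 1334 to 1387 TPM in I3-E3-SRS, against 724 to 1381 TPM in NC. Of these 11 genes, 6, 8, 6, 6 and 6 were above 0 in the 5 comparisons and 0 passed the adjusted threshold. At an unadjusted p under 0.05 by edgeR's quasi-likelihood test, Isl1, a transcription factor of sympathetic neurons, was lower in I0-E2 (25.6 CPM), I0-E4 (25.1 CPM) and I2-E2 (24.5 CPM), against 30.7 CPM in NC, with log2 fold changes of -0.25, -0.29 and -0.32, and Gata3 was lower in I0-E4 (31.8 CPM, against 37.4 CPM in NC, -0.24). Lower genes thus numbered 1, 2 and 1 of 11 in I0-E2, I0-E4 and I2-E2, against 1.85%, 3.75% and 3.34% of all tested genes. Markers of other cells were near 0, with sums over 6 genes of 3.24 to 9.64 TPM for fibroblasts and 0.396 to 6.36 TPM for macrophages in the exposed libraries of batch 1, against 3.61 to 6.75 TPM and 1.46 to 2.45 TPM in NC, and the macrophage marker C1qa was at 0 in all libraries.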

How the data were processed

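Bulk polyA RNA-seq of 20 libraries was analysed within 2 batches, with groups from the sample titles. The authors quantified transcripts with Salmon and deposited estimated counts and TPM per transcript. The Salmon version, its options and the transcript release were not given in the sources used here. Among 107368 transcripts, 98.65% matched GENCODE vM21 (GRCm38), and unmatched ones held 0.664% to 0.748% of counts. Estimated counts and TPM were summed per gene, and counts were rounded to whole numbers.

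Each batch was fitted across all genes with edgeR's quasi-likelihood test after filterByExpr (minimum count 10) and TMM, with group as the only factor (10 and 3 residual degrees of freedom), and adjusted by the Benjamini-Hochberg procedure at 0.05. CPM uses the TMM library size. Total counts ranged from 5473588 to 12698770. The variation between libraries of a group (edgeR's common coefficient, which may include technical variation) was 8.26% in batch 1 and 11.5% in batch 2. Intervals are at 95%. The members and gene lists were chosen with earlier results of these data known.

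Named members were the highest and lowest of each role, given by library for NC of batch 1 and as a range over its exposed libraries, up to 3 with the smallest p in each direction per comparison, and the immunoproteasome genes. Other members are named for counts, sequence or annotation, and Psma5, Psmg1 and the transcripts were picked after their values were seen. Alternatives were library totals, DESeq2 size factors, no filter, limma-voom, DESeq2, a replicate block, fits of 2 groups, removal of a trend on gene length, TPM, and leaving out each library. The code was tested on simulated data. Tables and plots were made in Python 3.11.15 (pandas 2.3.3, numpy 2.4.6, matplotlib 3.10.9) and fits in R 4.3.3 (DESeq2 1.42.0, edgeR 4.0.16, limma 3.58.1).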

Additional observations from a re-analysis of the deposited data

Results flagged for a closer look

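Psmb9, the interferon-induced beta subunit, was left untested in batch 2 by the filter on low counts, and it was picked out because its level in I3-E3-SRS lay above that of the control libraries. It averaged 1.06 CPM in I3-E3-SRS, with 1.03, 1.13 and 1.04 CPM, against 0.564 and 0.912 CPM in NC. These are 9, 12 and 13 counts in I3-E3-SRS and 3 and 8 counts in NC, so the difference was not tested and rests on few reads. No outlier test was run on single genes within groups of 2 or 3 libraries.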

How the results depend on the processing

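For single genes, the alternatives were compared only for the named members with the smallest p in each direction per comparison, not for all members. Of their log2 fold changes, 405 kept their direction and side of the threshold, 2 reversed direction and 1 passed the threshold. Removing the trend on gene length gave no new adjusted p, so only the direction could change there. Psmf1, lower than NC in I0-E4 and I2-E2, turned to 0.034 and 0.017 without replicate 2 of NC of batch 1, with ranges of -0.14 to 0.034 and -0.15 to 0.017 over libraries left out. That replicate had the highest NC value of Psmf1, 53.1 CPM against 47.8 and 41.4 CPM. Why it was highest was not tested. The value that passed was that of Psma3 in I3-E3-SRS, which went from 0.32 to 0.69 without replicate 2 of NC. The lone NC library is then assumed to vary like the exposed group, so calls from that fit are not read as results. Members above 0 ranged from 18 to 40 in I0-E0 and from 15 to 32 in I3-E3-SRS over libraries left out. With TPM in place of CPM, the members' median was 0.020 in I0-E0, 0.018 in I0-E2, 0.048 in I0-E4, 0.0074 in I2-E2 and 0.36 in I3-E3-SRS. The median of all genes moved too, in log2 TPM relative to the NC mean. In batch 2 it stood at 0.33, 0.34 and 0.25 in the I3-E3-SRS libraries, against -0.47 and 0.36 in NC. In batch 1 it stood at -0.0455, 0.003 and -0.021 in I0-E0 and 0.0145, -0.0325 and -0.073 in I0-E2. It was -0.094, -0.13 and 0.014 in I0-E4 and -0.051, -0.15 and 0.026 in I2-E2, against 0.0062, -0.0025 and -0.010 in NC. The members' medians in TPM are not corrected for these shifts. Exposed libraries had correlations of -0.077 to 0.13 with the same-numbered NC library, and pairing by number among the exposed groups was not checked. A shared effect of the replicate number can thus not be excluded. The fit with a replicate block gave medians of 0.033, 0.058, 0.12, 0.084 and -0.031 for I0-E0, I0-E2, I0-E4, I2-E2 and I3-E3-SRS, with 0 members called. Depth limits Psma8, Psmb11 and Psme2b, which were not tested, and Psmb9.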
